A study of Sus scrofa with 20 samples.

Results

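A group of 7 hair follicle genes was followed across pig skin: LGR5, KRT15, SOX9, LHX2, PTCH1, GATA3 and DLX3. They were taken by symbol, and all 7 of 7 were found among the 19280 genes of the deposited table (LGR5 as ENSSSCG00000030511, KRT15 as ENSSSCG00000017444, SOX9 as ENSSSCG00000017251, LHX2 as ENSSSCG00000005586, PTCH1 as ENSSSCG00000027312, GATA3 as ENSSSCG00000011125 and DLX3 as ENSSSCG00000017589). The data are RNA-seq counts of 4 skin sites from each of 5 female wild-type Yorkshire pigs, biopsied at the flank, the snout, the upper foot (labelled dorsal) and the sole (labelled volar). All pigs shared breed, sex and genotype, and none carried a treatment. The pigs were 4, 5, 6, 7 and 8 months old and each gave 1 library per site, so a pig is named here by its age. Libraries held 34077861 to 66906489 counts.

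Hair follicles are renewed by stem cells that sit in the bulge of the outer root sheath and in the hair germ below it. LGR5 is a receptor for R-spondins and marks cycling stem cells of the bulge and germ, KRT15 is a keratin long used as a bulge marker, and SOX9 and LHX2 are transcription factors that keep bulge cells in the stem cell state. PTCH1 is the hedgehog receptor and also a target of that pathway, which drives follicle growth. GATA3 directs the inner root sheath lineage and DLX3 acts in the hair matrix, and both also work in the epidermis between follicles. In skin LGR5 is mainly a follicle gene, while SOX9 is also made by sweat glands and cartilage, GATA3 by lymphocytes, and DLX3 by the differentiating layers of the epidermis.

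The libraries fall into 2 ranges of library number, and the labels of the second range did not match the first. Pigs of 4, 7 and 8 months make up the first set (12 libraries), and those of 5 and 6 months the second (8 libraries). The log2 level of each gene was first centred on its mean within each set, so r compares deviations and not levels. Each library was then correlated with the site means of the first set over 2000 variable genes, with the 7 genes left out and, for a first-set library, without itself. All 8 second-set libraries were closest to a site other than their label. The libraries labelled flank were closest to first-set volar (r = 0.873 and 0.870), those labelled volar to snout (r = 0.774 and 0.831), those labelled dorsal to flank (r = 0.843 and 0.808) and those labelled snout to dorsal (r = 0.820 and 0.860), each pair being the 5-month and then the 6-month pig. Among first-set libraries 11 of 12 had their own label as the closest site, the exception being flank of the 7-month pig, with r = 0.709 to dorsal and r = 0.663 to flank. Leaving out every gene of the lists used here as well gave the same counts.

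**Figure D1:**
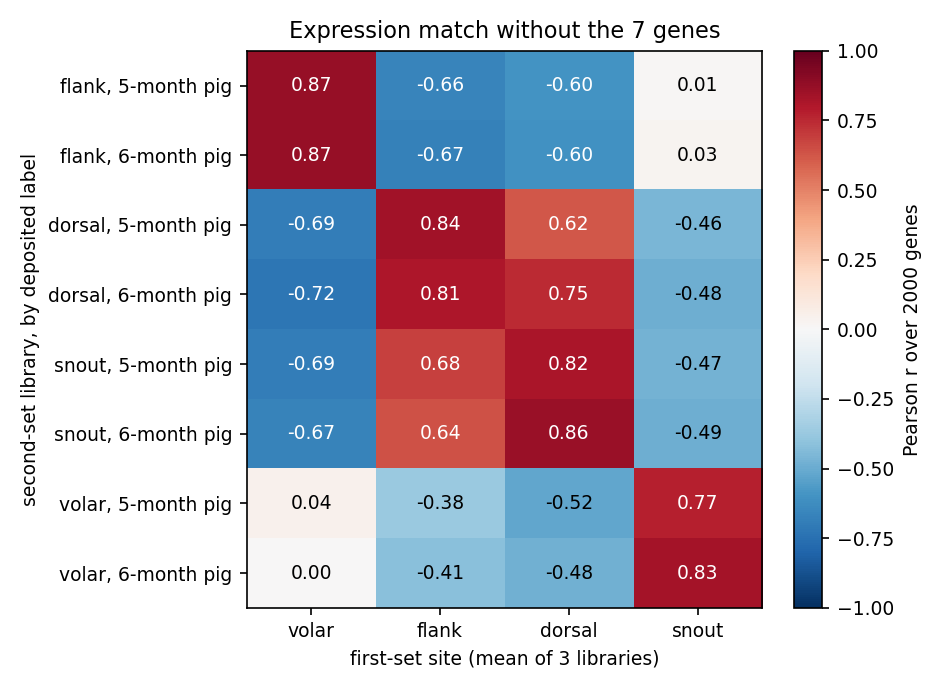
Pearson r of each second-set library (rows, by deposited label and pig) with the mean of each first-set site (columns), over 2000 variable genes without the 7 genes. Log2 levels were centred on each gene's mean within each set. The highest value in each row lies at a site other than the label, from 0.774 to 0.873.

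Tests therefore rest on the first set with its labels, and second-set values are given under the matched site with the deposited label beside them. That site was read from expression, so the second set describes further pigs and does not support the first set independently. Levels are CPM, each gene's counts scaled to a fixed library total, and differences are log2 fold changes ± standard error from edgeR, with p-values adjusted over all genes tested. A gene is said to have changed where the adjusted p was under 0.05. First-set libraries of a pair of sites often did not overlap, in either direction. This held for 44.6% of all genes in volar and dorsal, 43% in volar and flank and 31.2% in volar and snout. The share was 15% in dorsal and flank, 32% in dorsal and snout and 30.4% in snout and flank. Non-overlap is therefore given below as a description. In bulk skin, fewer cells of a type and less RNA per cell cannot be told apart.

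LGR5 had no count in any volar library of the first set. Its level was 9.82, 12.7 and 9.79 CPM in flank, 20.8, 26.8 and 19.4 CPM in dorsal and 1.55, 2.37 and 4.48 CPM in snout, in the pigs aged 4, 7 and 8 months. All 3 dorsal libraries lay above all flank libraries, which lay above all snout libraries. A count of 0 in the 3 volar libraries allows a level of up to 0.0230 CPM (3 counts over the group, counting error only). Volar LGR5 was therefore at least 969-fold lower than dorsal (adjusted p = 2.31e-05), at least 468-fold lower than flank (adjusted p = 2.55e-05) and at least 121-fold lower than snout (adjusted p = 0.000224). Snout was also lower than flank (log2 fold change -1.95 ± 0.36, adjusted p = 0.0094) and than dorsal (dorsal minus snout 2.98 ± 0.37, adjusted p = 0.00221).

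In the order dorsal, flank, snout and volar, only the step from dorsal to flank did not pass the test for LGR5 (log2 fold change 1.03 ± 0.35, adjusted p = 0.389). In the second set the libraries matched to volar and labelled flank again held no LGR5 count in either pig. The 5-month and 6-month pigs had 10.6 and 14.4 CPM in the libraries matched to flank (labelled dorsal), 47.4 and 31.9 CPM in those matched to dorsal (labelled snout) and 3.60 and 3.61 CPM in those matched to snout (labelled volar). With all 20 libraries at their matched sites the dorsal to flank difference passed (1.34 ± 0.29, adjusted p = 0.0339), in a fit that called 1 of the 7 genes there and 1.16% of all genes.

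**Figure D2:**
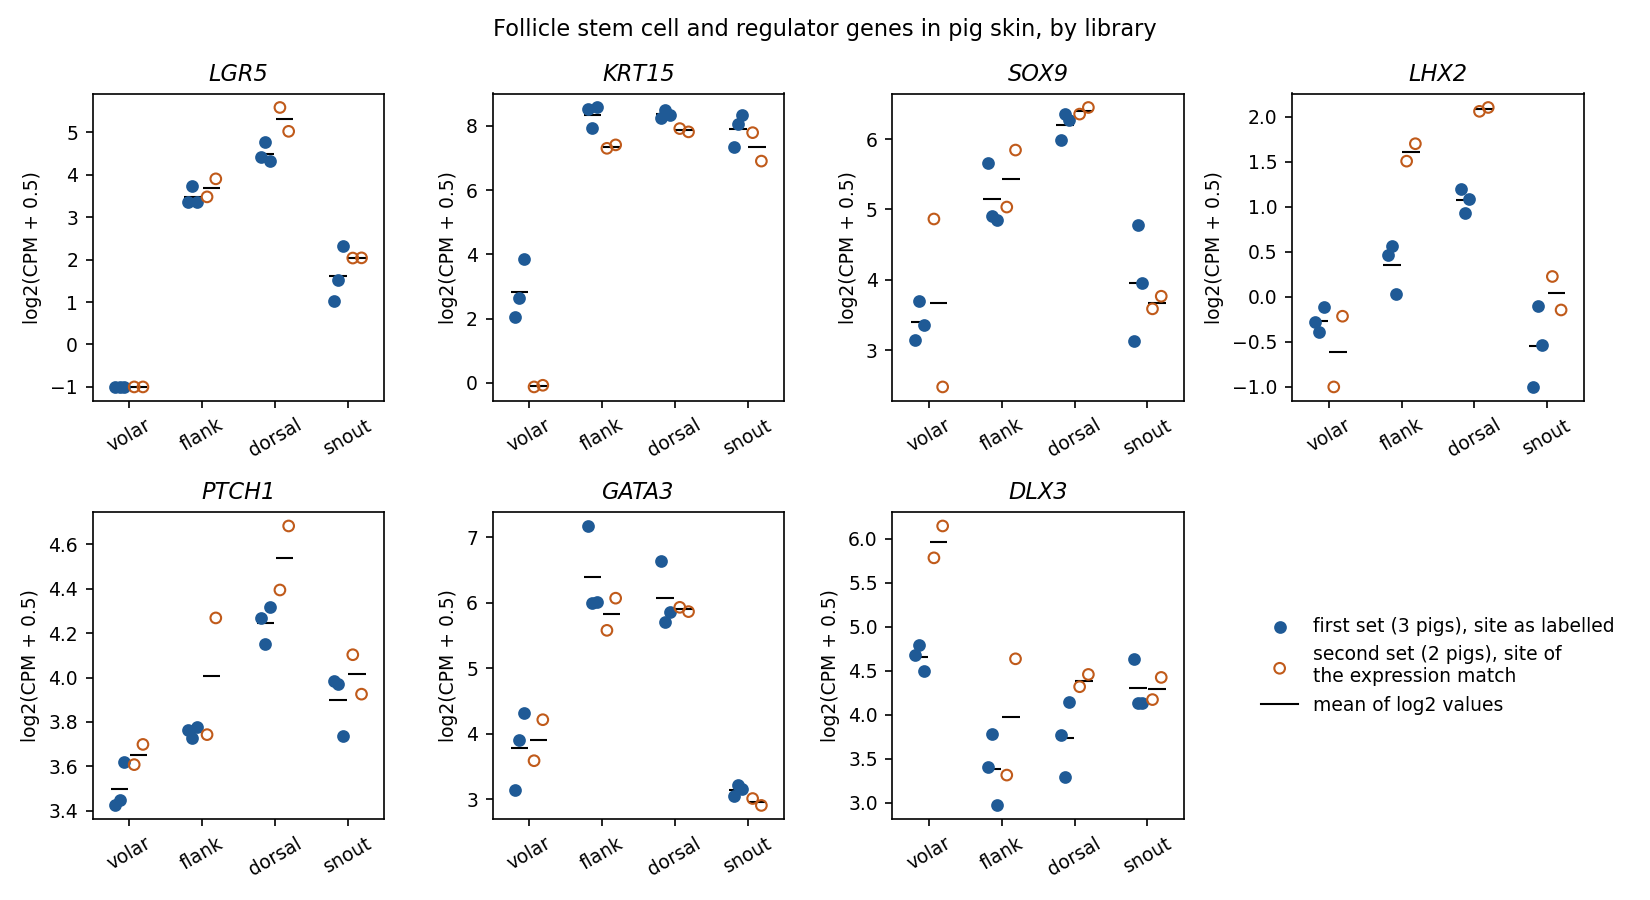
Level of each gene on the log2(CPM + 0.5) scale, 1 point per library, by site. Filled points are the first set as labelled, open points the second set at the matched site, and lines are means of the log2 values. LGR5 lies at the 0-count floor in all 5 volar libraries, and DLX3 is highest there.

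KRT15 was lower in volar skin than at each of the other 3 sites, which did not differ beyond their spread. The volar libraries held 3.62, 5.68 and 13.9 CPM in the pigs aged 4, 7 and 8 months. Flank held 368, 242 and 379 CPM, dorsal 304, 361 and 321 CPM, and snout 161, 263 and 322 CPM. The highest volar library was far under the lowest of any other site, while flank, dorsal and snout overlapped. Volar minus dorsal was -5.38 ± 0.50 (adjusted p = 7.45e-05), volar minus flank -5.41 ± 0.51 (adjusted p = 5.14e-05) and volar was 31.9-fold lower than snout (adjusted p = 0.000235). Between the other sites the adjusted p was 0.57 to 0.999.

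KRT15 is also made by basal keratinocytes of the epidermis. The summed level of 8 basal keratinocyte genes was highest in first-set volar (4758 to 5697 CPM), where KRT15 was lowest. It was 2116 to 3263 CPM in flank, 2830 to 3732 CPM in dorsal and 2953 to 4555 CPM in snout. The part of basal keratinocytes in the KRT15 levels was not tested. The basal keratins KRT5 and KRT14 were not found by symbol. COL17A1 alone gave a mean of 2715 CPM of 5133 CPM in volar. Of the 8 genes, 3, 4 and 2 were called higher in volar than in dorsal, flank and snout (14%, 16.9% and 5.71% of all genes), and 0 lower. Second-set KRT15 stood at 0.419 and 0.452 CPM in the volar-matched libraries of the 5-month and 6-month pigs (labelled flank). The flank-matched libraries held 157 and 169 CPM, the dorsal-matched 240.0 and 224 CPM and the snout-matched 220 and 119 CPM.

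SOX9 was highest in dorsal skin. The dorsal libraries held 62.8, 81.5 and 76.5 CPM in the pigs aged 4, 7 and 8 months, flank 50, 29.6 and 28.5 CPM, snout 8.24, 27.0 and 14.9 CPM, and volar 8.32, 12.5 and 9.76 CPM. Volar and snout overlapped, and every dorsal library exceeded every flank library. SOX9 was lower in volar than in dorsal (-2.83 ± 0.39, adjusted p = 0.000676) and flank (-1.82 ± 0.38, adjusted p = 0.00451), and higher in dorsal than in snout (2.12 ± 0.38, adjusted p = 0.00763). No neighbours in the order dorsal, flank, snout and volar differed by the test (adjusted p = 0.417, 0.0764 and 0.257 from the top down).

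The snout library of the 7-month pig, which held the highest SOX9 of its site, also carried skeletal muscle RNA, with the muscle actin ACTA1 at 2240.0 CPM and the summed muscle list at 7313 CPM against 5.32 CPM in the lowest snout library. Without it SOX9 was lower in snout than in flank (-1.64 ± 0.33, adjusted p = 0.0136). The other 11 single-library removals gave no such call (adjusted p up to 0.219). Both snout-matched libraries of the second set (labelled volar) carried muscle RNA too, with ACTA1 at 737 and 1210.0 CPM in the 5-month and 6-month pigs. Their SOX9 stood at 11.5 and 13.1 CPM, against 14.9 CPM in the first-set snout library of the 8-month pig, which held ACTA1 at 0.823 CPM. Without the 7-month snout library, LGR5 kept its calls of snout against volar, dorsal and flank, and KRT15 its call between volar and snout. The summed level of 11 cartilage genes was 40.6 to 65.2 CPM in volar, 62.3 to 83.2 CPM in flank, 56.8 to 74.2 CPM in dorsal and 51.9 to 74.6 CPM in snout. MATN1 and HAPLN1 had no count in volar. SOX6 gave most of the first-set volar sum, with a mean of 37.5 CPM of 51.0 CPM. Of 10 cartilage genes tested, 0 were higher and 5 lower in volar minus dorsal (14% and 10.1% of all genes). The counts were 1 and 4 against flank (16.9% and 16%) and 0 and 4 against snout (5.71% and 5.85%). The 10 sweat gland genes summed to 606 to 2204 CPM in volar and to 142 to 337 CPM over the other sites. FOXI1 and KRT8 had no count in volar. AQP5 gave most of the first-set volar sum, with a mean of 1354 CPM of 1466 CPM. Of 9 sweat gland genes tested, 1 was higher and 6 lower in volar minus dorsal (14% and 10.1% of all genes). The counts were 2 and 6 against flank (16.9% and 16%) and 2 and 4 against snout (5.71% and 5.85%). The part of muscle, cartilage and sweat gland cells in the SOX9 levels was not tested.

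In the second set SOX9 differed most between pigs in the volar-matched libraries (labelled flank), at 28.6 CPM in the 5-month and 5.07 CPM in the 6-month pig. The summed hair shaft and inner root sheath genes of these libraries stood at 284 and 34.1 CPM, and both had no LGR5 count. The other second-set levels were 32.2 and 56.9 CPM (flank match, labelled dorsal), 81.3 and 86.8 CPM (dorsal match, labelled snout) and 11.5 and 13.1 CPM (snout match, labelled volar).

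LHX2 had few counts, with 0 to 116 counts per first-set library. Its level was 1.79, 1.41 and 1.63 CPM in dorsal, 0.878, 0.978 and 0.523 CPM in flank, 0.327, 0.261 and 0.422 CPM in volar and 0, 0.431 and 0.189 CPM in snout, in the pigs aged 4, 7 and 8 months. All dorsal libraries exceeded all others, but no pair of sites passed the test (volar minus dorsal -2.22 ± 0.83, adjusted p = 0.0759, and dorsal minus snout 2.91 ± 0.85, adjusted p = 0.0611). The call depended on single libraries: without the 4-month or without the 7-month snout library, LHX2 passed both in volar minus dorsal (adjusted p = 0.00511 and 0.0481) and in dorsal minus snout (adjusted p = 0.0273 and 0.0361). DESeq2 called both (adjusted p = 0.0171 and 0.00269), and limma-voom called dorsal minus snout (adjusted p = 0.0204). Second-set dorsal-matched libraries held 3.67 and 3.80 CPM of LHX2 and the flank-matched ones 2.34 and 2.75 CPM, in the 5-month and 6-month pigs. The snout-matched libraries held 0.670 and 0.404 CPM and the volar-matched 0 and 0.362 CPM. With all 20 libraries at matched sites, LHX2 was lower in volar than in dorsal (-3.12 ± 0.77, adjusted p = 0.00267) and flank (-2.40 ± 0.75, adjusted p = 0.0118).

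PTCH1 had a narrow range over the sites. The libraries of the pigs aged 4, 7 and 8 months held 10.2, 10.4 and 11.8 CPM in volar, 13.1, 12.8 and 13.2 CPM in flank, 15.3, 15.2 and 12.8 CPM in snout and 18.8, 17.2 and 19.4 CPM in dorsal. Volar lay below every other site without overlap, and dorsal above every other site. Over all genes, 22.4%, 21.3% and 15.8% were likewise lower without overlap in volar than in dorsal, flank and snout. Dorsal was higher without overlap than flank for 7.55% and than snout for 15.3% of all genes. PTCH1 was lower in volar than in dorsal (-0.75 ± 0.12, adjusted p = 0.00176), a 1.68-fold difference. No other pair passed, including volar minus snout (-0.41 ± 0.12, adjusted p = 0.0549) and volar minus flank (-0.26 ± 0.12, adjusted p = 0.127). Both passed with upper-quartile scaling (adjusted p = 0.0324 and 0.0371), which moved the median of all genes and ended a call of DLX3. DESeq2 called PTCH1 in volar minus snout, dorsal minus flank and dorsal minus snout (adjusted p = 0.00569, 0.00236 and 0.0206). Second-set PTCH1 stood at 11.7 and 12.5 CPM in the volar-matched, 12.9 and 18.8 CPM in the flank-matched, 20.5 and 25.2 CPM in the dorsal-matched and 16.7 and 14.7 CPM in the snout-matched libraries of the 5-month and 6-month pigs.

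GATA3 was high in flank and dorsal skin and low in snout and volar skin. Flank held 144, 63.1 and 64.1 CPM in the pigs aged 4, 7 and 8 months and dorsal 99.1, 51.8 and 57.6 CPM, so the 4-month pig was highest at both sites. Volar held 8.37, 14.4 and 19.5 CPM and snout 7.82, 8.86 and 8.45 CPM. The lower pair overlapped each other, as did the higher pair, and no library of one pair reached the other. GATA3 was lower in volar than in flank (-2.68 ± 0.41, adjusted p = 0.000755) and dorsal (-2.28 ± 0.40, adjusted p = 0.00238), and lower in snout than in flank (-3.43 ± 0.42, adjusted p = 0.000598). Dorsal also exceeded snout (3.03 ± 0.41, adjusted p = 0.00168).

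Lymphocyte genes were measured beside GATA3. The summed level of 10 T cell and innate lymphoid genes was 9.95 to 17.8 CPM in volar, 19.6 to 26.2 CPM in flank, 15.6 to 22.5 CPM in dorsal and 13.5 to 15.5 CPM in snout, and CD8A had no count in volar. Of 9 such genes tested, 0 were higher and 1 was lower in volar minus flank (16.9% and 16% of all genes) and in snout minus flank (7.77% and 5.46%). The 1 lower in snout than in flank was CD3D (-1.30 ± 0.33, adjusted p = 0.0281). In volar minus dorsal and dorsal minus snout 0 were called (24.1% and 7.92% of all genes). The part of lymphocytes in the GATA3 levels was not tested. Second-set GATA3 stood at 11.5 and 18.1 CPM in the volar-matched, 47.3 and 66.7 CPM in the flank-matched, 60.5 and 57.8 CPM in the dorsal-matched and 7.58 and 7.01 CPM in the snout-matched libraries of the 5-month and 6-month pigs. There the matched volar level exceeded snout by the test (1.01 ± 0.26, adjusted p = 0.0203), which it did not in the first set (0.76 ± 0.39, adjusted p = 0.248). The test of the difference between the sets in this contrast was not passed (edgeR interaction, adjusted p = 0.871).

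DLX3 was highest in volar skin, and of the 7 genes it was the 1 with a positive log2 fold change in volar minus dorsal and volar minus flank. In volar minus snout its sign (0.35) was shared by GATA3 (0.76) and LHX2 (0.69), none of them called. The volar libraries held 25.2, 27.1 and 22.1 CPM in the pigs aged 4, 7 and 8 months, snout 24.3, 17.0 and 17.1 CPM, dorsal 13.1, 9.29 and 17.2 CPM and flank 10.1, 13.2 and 7.33 CPM. Volar lay above every flank and dorsal library and overlapped snout. DLX3 was higher in volar than in flank (1.28 ± 0.26, adjusted p = 0.00407) and dorsal (0.93 ± 0.26, adjusted p = 0.0243). It was also higher in snout than in flank (0.93 ± 0.26, adjusted p = 0.0398), a call that was lost with the pig as block (adjusted p = 0.0536), with upper-quartile scaling (adjusted p = 0.0535) and with all 20 libraries at matched sites (0.59 ± 0.34, adjusted p = 0.224).

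The DLX3 calls against dorsal and between snout and flank were the least stable. Volar minus dorsal was lost without the 4-month volar, 4-month dorsal, 7-month volar or 7-month dorsal library (adjusted p = 0.0636, 0.0691, 0.0676 and 0.0893). Snout minus flank was lost in 8 of 12 single-library removals, those of all 4 libraries of the 4-month pig, the snout, flank and volar libraries of the 8-month pig and the snout library of the 7-month pig (adjusted p up to 0.133). DLX3 of the second set reached 54.6 and 70.3 CPM in the volar-matched libraries (labelled flank) of the 5-month and 6-month pigs, above all other libraries. The flank-matched libraries held 9.45 and 24.4 CPM, the dorsal-matched 19.5 and 21.5 CPM and the snout-matched 17.5 and 21.0 CPM. The summed level of 7 genes of the differentiating epidermal layers was also highest in volar. It was 242800 to 282200 CPM in first-set volar, 466200 to 576500 CPM in second-set volar-matched libraries and 9464 to 25940 CPM elsewhere. KRT1 and KRT10 gave most of the first-set volar sum, with means of 201800 and 54800 CPM of 263000 CPM. Of these 7 epidermal genes, 6, 6 and 4 were called higher in volar than in dorsal, flank and snout (14%, 16.9% and 5.71% of all genes), and 0 lower. In snout minus flank 3 were higher and 1, KRT1, was lower (7.77% and 5.46% of all genes). The part of these layers in the DLX3 levels was not tested.

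Counted together, 6 of the 7 genes changed between volar and dorsal in the first set, against 24.1% of all 15302 genes tested. The counts were 5 of 7 for volar minus flank (32.9% of all genes), 2 of 7 for volar minus snout (11.6%), 0 of 7 for dorsal minus flank (0.131%), 3 of 7 for dorsal minus snout (7.92%) and 3 of 7 for snout minus flank (13.2%). The share of the 7 genes called was above the background in 5 of the 6 comparisons. With any difference among the 4 sites tested at once, 6 of 7 passed (30.4% of all genes) and LHX2 did not (adjusted p = 0.0575). The median log2 fold change of the 7 genes was -2.28 for volar minus dorsal and 2.12 for dorsal minus snout, where the median over all genes was -0.01 and -0.02. The 7 genes were chosen with earlier results of these data known, so these counts describe them and no more.

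**Figure D3:**
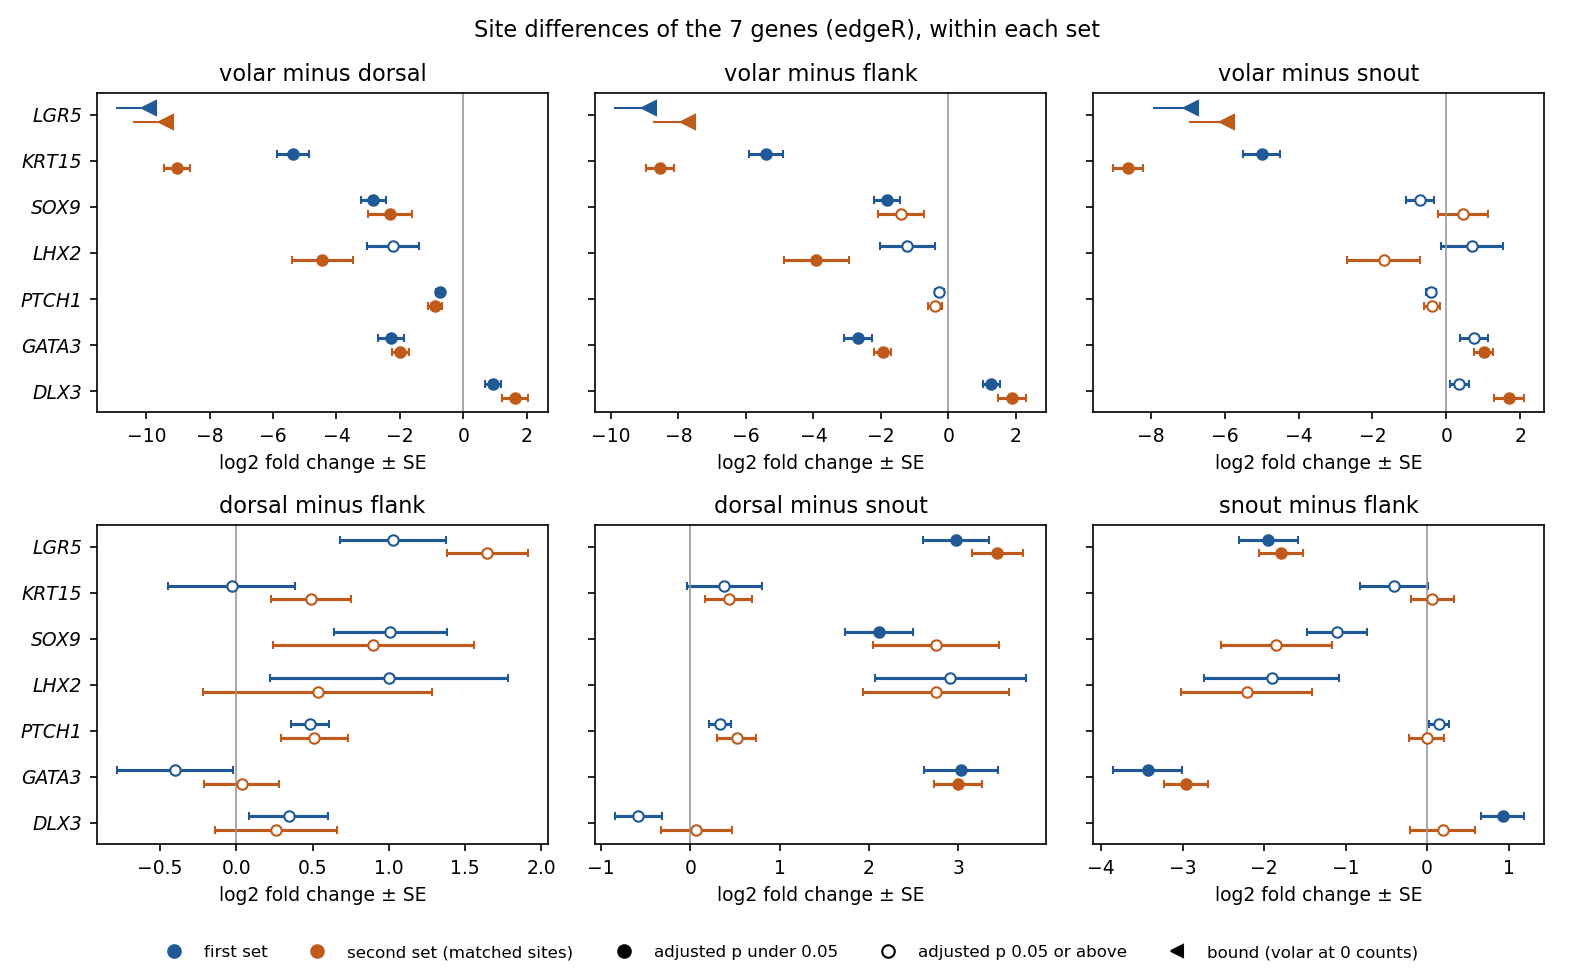
Log2 fold change ± standard error of each gene in the 6 site comparisons, from edgeR within the first set (as labelled) and the second set (matched sites). Filled points have an adjusted p under 0.05, and arrowheads mark the bound for LGR5 against volar, where no count was found. The first-set dorsal minus flank panel has no filled point.

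Pooling all 20 libraries under the deposited labels called none of the 7 genes and 0 of 15275 genes in any comparison by edgeR (702 to 3877 genes had an unadjusted p under 0.05, and no other tool was run on that grouping). In the second set by itself, the matched sites gave calls for all 7 genes in volar minus dorsal (42.9% of all genes), for 5 in volar minus flank (46.7%), for 4 in volar minus snout (38.5%), for 0 in dorsal minus flank (0.0393%), for 2 in dorsal minus snout (10.2%) and for 2 in snout minus flank (13%). With all 20 libraries at matched sites all 7 genes were called in volar minus dorsal (45.6%) and in volar minus flank (51.9%), and 5 of 7 in volar minus snout (36%) and in dorsal minus snout (19.3%). In snout minus flank 4 of 7 were called (25.5%), SOX9 and LHX2 being gained and DLX3 lost against the first set.

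In the hedgehog pathway around PTCH1, the transcriptional effectors GLI1 and GLI2 were lower in volar skin than at each other site. GLI1, a target and activator of the pathway, held 0.865 ± 0.571 CPM in volar (SD, n = 3), 2.54 ± 0.573 CPM in flank, 4.07 ± 0.263 CPM in dorsal and 3.24 ± 0.239 CPM in snout. It was lower in volar than in dorsal (-2.20 ± 0.41, adjusted p = 0.00304), flank (-1.55 ± 0.40, adjusted p = 0.0132) and snout (-1.90 ± 0.40, adjusted p = 0.0129). GLI2, the main activator, was lower against the same 3 sites (-1.97 ± 0.34, -1.50 ± 0.33 and -1.58 ± 0.33, adjusted p = 0.00202, 0.00621 and 0.0126). Of 11 hedgehog genes tested, 1 rose and 3 fell in volar minus dorsal, where 14% of all genes rose and 10.1% fell. Beside GLI1 and GLI2, the signal transducer SMO fell (-0.73 ± 0.19, adjusted p = 0.0192), and the inhibitor SUFU was higher (1.20 ± 0.31, adjusted p = 0.0168).

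In volar minus flank 1 of the 11 was higher and 2 were lower, a smaller share than over all genes (16.9% higher and 16% lower), so this count is no result about the pathway. The other hedgehog counts were 1 higher and 3 lower for volar minus snout (5.71% and 5.85% of all genes), 0 and 0 for dorsal minus flank (0.0784% and 0.0523%), 1 and 0 for dorsal minus snout (2.92% and 5%) and 2 and 1 for snout minus flank (7.77% and 5.46%). SUFU was also higher in volar than in flank (1.30 ± 0.31, adjusted p = 0.00859). GLI3, which can act as the pathway's repressor, was lower in snout than in volar (volar minus snout 1.11 ± 0.25, adjusted p = 0.016) and dorsal (dorsal minus snout 1.11 ± 0.25, adjusted p = 0.0205). HHIP, a hedgehog-binding inhibitor and pathway target, was higher in snout than in flank (2.50 ± 0.65, adjusted p = 0.0288). The ligand SHH was near the limit of detection in all libraries, with at most 0.182 CPM, and was not tested.

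**Figure D4:**
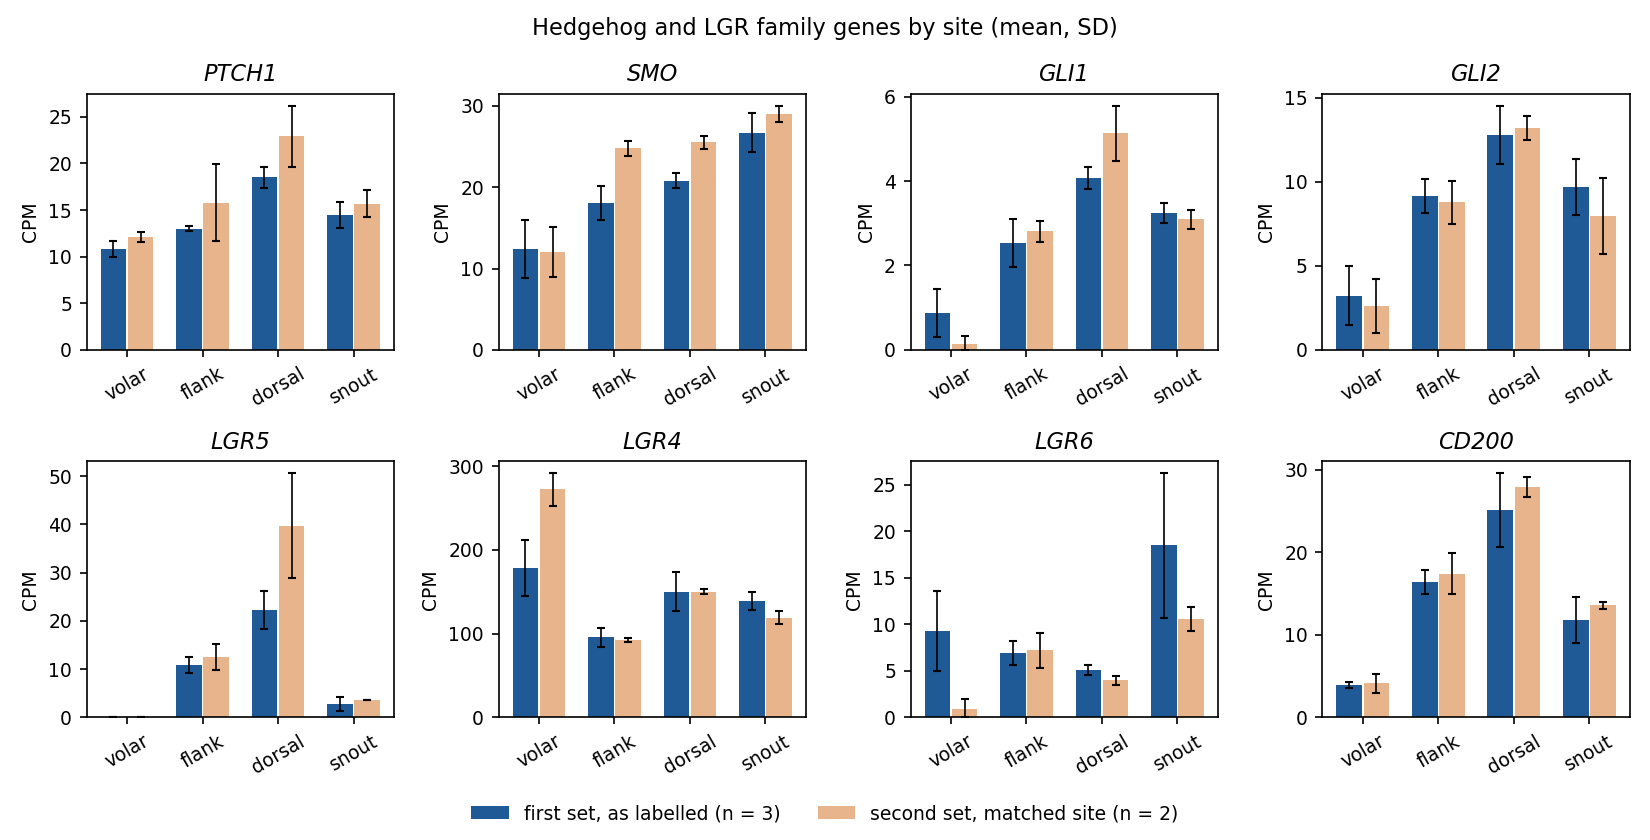
Mean CPM with SD of hedgehog genes (PTCH1, SMO, GLI1, GLI2), LGR family genes (LGR5, LGR4, LGR6) and CD200 by site, for the first set as labelled (n = 3) and the second set at the matched site (n = 2). GLI1 and GLI2 are lowest in volar, while LGR4 is highest there and LGR6 is highest in snout.

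The paralogs of LGR5 did not share its absence from volar skin in the first set. LGR4, a broadly made R-spondin receptor, held 178 ± 33.2 CPM in volar against 95.5 ± 11.5 CPM in flank (SD, n = 3) and was higher there (0.90 ± 0.16, adjusted p = 0.00176). It was also higher in snout than in flank (0.54 ± 0.16, adjusted p = 0.0461). LGR6, which marks stem cells of the upper follicle, epidermis and sweat glands, held 9.29 ± 4.28 CPM in volar, 6.92 ± 1.25 CPM in flank, 5.11 ± 0.515 CPM in dorsal and 18.5 ± 7.76 CPM in snout. It was higher in snout than in flank (1.41 ± 0.36, adjusted p = 0.0285) and dorsal (dorsal minus snout -1.87 ± 0.37, adjusted p = 0.0121). In the second set LGR6 in the volar-matched libraries was 0.136 and 1.64 CPM, under the lowest first-set volar value of 4.90 CPM. The lower value is near the limit of detection, since 3 counts correspond to 0.105 to 0.136 CPM in these libraries.

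Of 13 LGR and R-spondin pathway genes tested, 0 rose and 2 fell in volar minus dorsal, a smaller share than the 24.1% of all genes called there: LEF1, a transcription factor of Wnt signalling (-1.99 ± 0.52, adjusted p = 0.0192), and the ligand RSPO1 (-1.28 ± 0.34, adjusted p = 0.0193). In volar minus flank 3 rose and 3 fell (16.9% and 16% of all genes). The 3 higher were LGR4, the ligase ZNRF3 that removes Wnt receptors (1.19 ± 0.33, adjusted p = 0.0192) and TCF7 (1.15 ± 0.39, adjusted p = 0.0426). The 3 lower were RSPO1 (-1.42 ± 0.34, adjusted p = 0.00917) and the Wnt co-receptors LRP6 (-0.72 ± 0.14, adjusted p = 0.0034) and LRP5 (-0.56 ± 0.17, adjusted p = 0.0304). AXIN2, a general Wnt target, was lower in snout than in flank (-0.81 ± 0.22, adjusted p = 0.034). The median of this list was -0.21 for volar minus dorsal and -0.30 for volar minus flank, with -0.01 and -0.05 over all genes.

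Other bulge and outer root sheath genes moved in both directions. Of 14 tested, 3 rose and 6 fell in volar minus dorsal (14% and 10.1% of all genes) and likewise in volar minus flank (16.9% and 16%). CD200, a surface protein of bulge cells, fell in volar against dorsal (-2.65 ± 0.20, adjusted p = 2.62e-05), flank (-2.06 ± 0.20, adjusted p = 6.31e-05) and snout (-1.58 ± 0.20, adjusted p = 0.00096). LRIG1, a marker of upper follicle stem cells, and FST, a secreted activin inhibitor, were also lower in volar than in dorsal (-2.57 ± 0.30 and -2.86 ± 0.41, adjusted p = 0.000231 and 0.000786). Those higher in volar were the basal adhesion genes COL17A1 (1.07 ± 0.23, adjusted p = 0.00693) and ITGA6 (0.96 ± 0.23, adjusted p = 0.0119) and DKK3 (1.06 ± 0.20, adjusted p = 0.00395).

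Among 20 regulators of the hair matrix and follicle lineages, 2 rose and 8 fell in volar minus dorsal (14% and 10.1% of all genes). In volar minus flank 5 were higher and 3 lower, close to the shares over all genes (16.9% and 16%), so this count is no result about the list. The counts were 2 higher and 2 lower in volar minus snout (5.71% and 5.85% of all genes) and in dorsal minus snout (2.92% and 5%). They were 3 and 1 in snout minus flank (7.77% and 5.46%), and 0 and 0 in dorsal minus flank (0.0784% and 0.0523%). PRDM1, which acts in keratinocyte differentiation, and TRPS1, a repressor mutated in a sparse-hair syndrome, were higher in volar than in dorsal (2.65 ± 0.28 and 2.10 ± 0.20, adjusted p = 0.000135 and 8.55e-05). EDAR, the ectodysplasin receptor needed for follicle formation, and BMP4 were lower (-2.08 ± 0.36 and -1.94 ± 0.45, adjusted p = 0.0021 and 0.01). HOXC13, which controls hair keratin genes, was higher in dorsal than in snout (3.00 ± 0.57, adjusted p = 0.00963). Of 15 paralogs of the 7 genes tested, 4 were higher and 3 lower in volar minus dorsal (14% and 10.1% of all genes). The counts were 6 and 2 in volar minus flank (16.9% and 16%), 1 and 3 in volar minus snout (5.71% and 5.85%) and 9 and 0 in snout minus flank (7.77% and 5.46%). Among them, DLX5 and DLX6 were higher in volar than in dorsal (2.21 ± 0.34 and 2.54 ± 0.34, adjusted p = 0.00108 and 0.000529) and flank (3.14 ± 0.35 and 3.32 ± 0.35, adjusted p = 0.00014 and 0.000106), the direction of DLX3.

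Genes of the hair itself were also measured. All 18 hair shaft and inner root sheath genes tested were lower in volar than in dorsal, 16 were lower in volar than in flank and 15 lower in volar than in snout, while 8 were higher in dorsal than in snout. Over all genes 10.1%, 16%, 5.85% and 2.92% were called in those directions. In snout minus flank and dorsal minus flank 0 of the 18 were called, against 13.2% and 0.131% of all genes. Their summed level was 3.87 to 17.4 CPM in volar, 528 to 7999 CPM in flank, 6180 to 15900 CPM in dorsal and 355 to 1131 CPM in snout of the first set. LGR5 spread far less than this sum within flank: the highest library exceeded the lowest 15.1-fold in the sum and 1.3-fold in LGR5. In dorsal the spread was 2.57-fold and 1.38-fold, and in snout 3.18-fold and 2.89-fold.

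**Figure D5:**
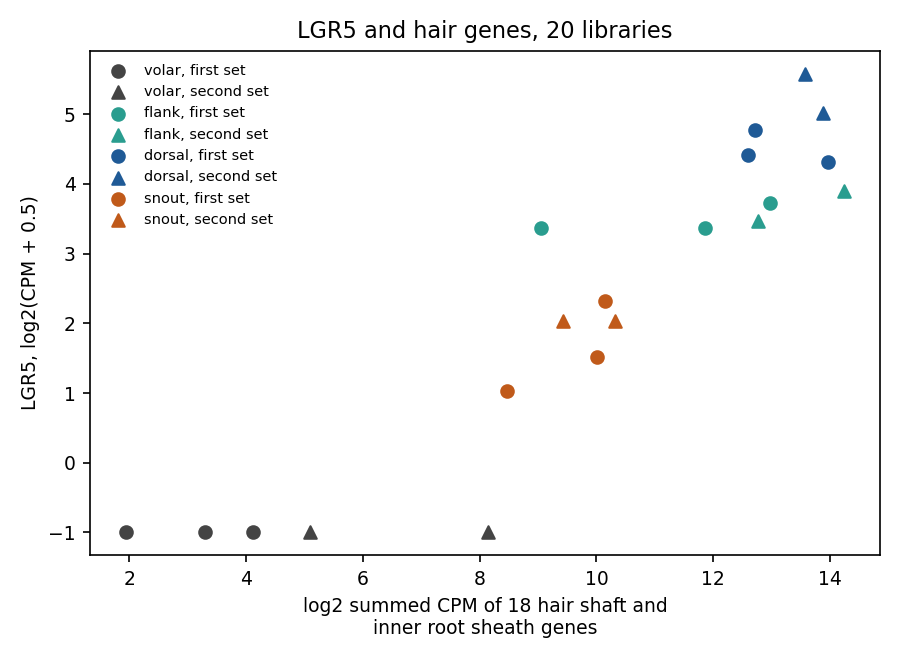
LGR5 on the log2(CPM + 0.5) scale against the log2 summed CPM of 18 hair shaft and inner root sheath genes, 1 point per library (circles first set, triangles second set at matched sites). The flank libraries of the first set spread from 528 to 7999 CPM on the x axis at 9.79 to 12.7 CPM of LGR5.

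For each of the 7 genes the 3 most similar genes were sought by Pearson r of log2(CPM + 0.5) over the 20 libraries, among 9849 genes with a mean of at least 5 CPM. The libraries share pigs and sites, so r is given as a description. LGR5 was closest to CD200 (r = 0.979), PHYHIP (r = 0.978) and C1QTNF12 (r = 0.976). In the 12 first-set libraries alone these 3 genes ranked 1, 4 and 2, with CD200 at r = 0.982. SOX9 was closest to RTN1 (r = 0.934), the Wnt receptor FZD7 (r = 0.913) and C1QTNF12 (r = 0.888), which ranked 3, 12 and 5 in the first set. KRT15 was closest to SLC45A4 (r = 0.969), RYR2 (r = 0.967) and SYNGR1 (r = 0.962), and by Spearman's rho these fell to 0.83, 0.744 and 0.459. Their first-set ranks were 16, 13 and 2.

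GATA3 was closest to KRT77 (r = 0.975), a keratin of the sweat duct, then F2RL1 (r = 0.964) and SKAP2 (r = 0.947), ranked 1, 6 and 7 in the first set. KRT77 held 6.43 ± 6.08 CPM in volar, 139 ± 61.6 CPM in flank, 66.6 ± 7.06 CPM in dorsal and 0.800 ± 0.326 CPM in snout (SD, n = 3), high and low at the same sites as GATA3. Other sweat gland genes did not share this pattern. AQP5 had a mean of 1354 CPM in volar, 64.7 CPM in snout and 7.84 CPM in flank. Of the 9 sweat gland genes tested, 2 were higher and 1 lower in snout minus flank (7.77% and 5.46% of all genes). The part of sweat gland cells in the GATA3 levels was not tested. DLX3 was closest to FNBP1L, ATP6V1D and PET100 (r = 0.940, 0.932 and 0.930), PTCH1 to PARM1, SLC39A6 and F2R (r = 0.855, 0.852 and 0.841) and LHX2 to the adrenergic receptor ADRA2A, SLC15A1 and TPD52L1 (r = 0.931, 0.890 and 0.889). These last 3 lists did not keep their places in the first set, where the genes ranked 50, 46 and 96 for DLX3, 4, 19 and 87 for PTCH1 and 36, 20 and 182 for LHX2. Among the 7 genes the highest values were between LGR5 and KRT15 and between LGR5 and SOX9 (r = 0.843 for both), and DLX3 was negative with each of the other 6, down to -0.817 with KRT15.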

How the data were processed

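The authors deposited estimated counts per Ensembl gene for 20 libraries, for which the submitters' processing notes name Salmon. Version, build and annotation: not given in the sources used here. Libraries were TruSeq stranded mRNA, per the labels' protocols. Counts (42.2% not whole, tolerance 1e-09) were rounded, and 14821 of 19280 identifiers matched a symbol. Genes were tested with edgeR 4.0.16 (R 4.3.3; quasi-likelihood, robust, TMM, filterByExpr with minimum count 10 and total 15, Benjamini-Hochberg) on the 12 first-set libraries, with 8 residual degrees of freedom and no pig term. CPM used TMM over all 20 libraries. The members and lists were chosen with earlier results of these data known. The 7 genes are named throughout, with up to 4 genes of smallest adjusted p per list, comparison and direction, the pathway genes SHH, GLI1, LGR4, LGR6, AXIN2 and HHIP, and the 3 most similar genes. A further listed gene is not reported here, and the lists were counted without it. The sites of a pig come from 1 animal per the labels, which pairs the libraries: deviations of same-pig libraries correlated with r from -0.00692 to 0.435 in the first set (median 0.216). Pigs are the replicates. Alternatives were DESeq2 1.42.0, limma-voom (limma 3.58.1), other scalings, no filter, the pig block, other library sets and each library left out. On simulated volar minus dorsal counts (15195 genes), 26 of 99 genes changed 2-fold and 71 of 100 changed 4-fold were recovered, with 4 false calls. No sequence is given, since no build is named.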

Additional observations from a re-analysis of the deposited data

Results flagged for a closer look

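KRT15 fell further in volar than in dorsal skin in the second set (log2 fold change -9.04) than in the first (-5.38). The difference between the sets was 3.67 ± 0.72 on the log2 scale (edgeR interaction over all 20 libraries, adjusted p = 0.0401), and 78 of 15735 genes (0.496%) passed that test. All 3 first-set volar libraries held 3.62 CPM or more and both second-set volar-matched libraries 0.452 CPM or less. The same difference missed the threshold against flank (adjusted p = 0.0558) and snout (adjusted p = 0.0528). Set, pig and age cannot be told apart here, and the second-set site rests on the expression match. This was the only flag among 42 such tests of the 7 genes. Those of LGR5 against volar could not be flagged, since LGR5 had no volar count in either set.

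A single library stood apart from its site in 2 of 27 groups of 5 libraries, where chance flags about 1 in 20 groups. GATA3 in the dorsal library of the 4-month pig was 99.1 CPM, above the other dorsal libraries of both sets. PTCH1 in the flank-matched library of the 6-month pig (labelled dorsal) was 18.8 CPM, above the other 4.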

How the results depend on the processing

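Limits: 3 pigs per site in the first set, a second set whose sites come from expression, and LHX2 at under 120 counts in each first-set library. Scaling bore on direction in general: upper-quartile scaling moved the median of all genes by -0.107 in volar minus dorsal and the share of higher among called genes there from 58% to 44.6%, while the 7 genes kept their signs. It gained 2 calls of PTCH1 (volar minus flank and volar minus snout) and lost 1 of DLX3 (snout minus flank, 0.87, adjusted p = 0.0535).

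Median-of-ratios scaling, no low-count filter and leaving out the 20 most abundant genes changed no call of the 7 genes. The pig as replicate block ended 1 call of the 7 genes (DLX3, snout minus flank, 0.92, adjusted p = 0.0536) and moved 1 gene count by over 1.5 times, dorsal minus flank to 32 genes; it changed no other call. limma-voom gave 48 genes there and gained 1 call of the 7 genes, LHX2 dorsal minus snout. DESeq2 gave 350 genes and 1 of the 7 for dorsal minus flank, 2045 genes and 5 of the 7 for dorsal minus snout, 2730 genes for volar minus snout and 3038 for snout minus flank. Its 6 gained calls were LHX2 (volar minus dorsal, dorsal minus snout), PTCH1 (volar minus snout, dorsal minus flank, dorsal minus snout) and SOX9 (snout minus flank, adjusted p = 0.0216), with none of the 7 genes' calls lost.

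With all 20 libraries at matched sites the counts were 6964 (volar minus dorsal), 7926 (volar minus flank), 5506 (volar minus snout), 177 (dorsal minus flank), 2955 (dorsal minus snout), 3888 (snout minus flank) and 8577 (any site), with 5, 1 and 5 of the 7 genes in volar minus snout, dorsal minus flank and dorsal minus snout. That fit gained 11 calls of single genes and lost 1 (DLX3 snout minus flank, 0.59, adjusted p = 0.224). LHX2 reversed in volar minus snout (-0.29) and KRT15 in dorsal minus flank (0.12). Adding the pig as replicate block, chosen after seeing the data, gave 8110, 8950, 6760, 334, 3916, 4977 and 9971 genes in the same order, 5, 2 and 5 of the 7 genes, and KRT15 dorsal minus flank at 0.22, with 12 calls gained and the same 1 lost. The second set by itself, also added later, gave 6559, 5884 and 6 genes for volar minus dorsal, volar minus snout and dorsal minus flank, and 4 of the 7 genes in volar minus snout, with 4 calls gained and 3 lost (SOX9 volar minus flank and dorsal minus snout, DLX3 snout minus flank; adjusted p = 0.13, 0.0539 and 0.796). It reversed 7 values, none called in either set: PTCH1 snout minus flank -0.0069, KRT15 dorsal minus flank 0.49 and snout minus flank 0.064, GATA3 dorsal minus flank 0.035, SOX9 volar minus snout 0.45 (first set -0.72), LHX2 volar minus snout -1.70 (first set 0.69) and DLX3 dorsal minus snout 0.068.

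The deposited labels over 20 libraries called 0 genes, and 0 of the 7, in every comparison, and reversed LHX2 volar minus snout (-1.92), PTCH1 dorsal minus snout (-0.044) and volar minus flank (0.020), KRT15 dorsal minus flank (0.39) and snout minus flank (0.29), GATA3 dorsal minus flank (0.086) and volar minus snout (-1.33), DLX3 dorsal minus flank (-1.10), volar minus flank (-0.46) and snout minus flank (-0.65), LGR5 snout minus flank (1.43), SOX9 snout minus flank (0.62) and LHX2 snout minus flank (1.53). The cause was not tested.

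Leaving out 1 library at a time gave 2360 to 4051 genes for volar minus dorsal, 3917 to 5035 for volar minus flank, 1025 to 2009 for volar minus snout, 1 to 42 for dorsal minus flank, 597 to 1370 for dorsal minus snout, 1263 to 2136 for snout minus flank and 3724 to 4588 for any site. Of the 7 genes it called 5 to 7, 5 to 6, 2 to 3, 0 to 0, 3 to 4, 2 to 3 and 6 to 7 in the same order. KRT15 dorsal minus flank ran from -0.21 to 0.099 and GATA3 dorsal minus flank from -0.75 to 0.11, both without a call.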
